A study of Mus musculus with 60 samples.

Results

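The genes described here are 49 mouse genes that act in G2 phase and mitosis, from the cyclin B and CDK1 switch to the kinetochore, the spindle and cytokinesis, read across 60 RNA-seq libraries of cultured mouse mammary cells. They were chosen by name, as the rows of the 3 count tables whose gene symbol stands in a list of 49. The set was chosen with earlier results of these data known, so counts over it are descriptions. The tables hold 54532 genes for each experiment in NMuMG cells and 55487 for the experiment in 4T1 cells. All 49 genes were found in each table, Sgol1 under its current symbol Sgo1, and all 49 had enough counts to be tested in each.

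The NMuMG line comes from epithelium of the mouse mammary gland. The 4T1 line comes from a mouse mammary tumour, and the labels class it as triple-negative breast cancer. Each cell line was studied with and without TGFβ1, a cytokine that induces the epithelial-mesenchymal transition, at 5 ng/ml. In experiment 1, NMuMG cells with a control guide RNA (sgCT) and NMuMG cells labelled PBRM1 knockout (sgPBRM1) were sampled before TGFβ1 (0 h) and after 24, 48 and 72 h of it. PBRM1 is a subunit of the PBAF chromatin remodelling complex. In experiment 2, NMuMG cells with the control vector pLKO and cells labelled ATF3 knockdown (shATF3) were sampled at these 4 times as well. The transcription factor ATF3 is induced by stress. In experiment 3, 4T1 cells with pLKO and cells labelled PBRM1 knockdown (shPBRM1) were grown without TGFβ1 (labelled 0 h) or with it for 4 d. Each of the 20 groups held 3 libraries, labelled as biological replicates. The sources used here do not say whether an altered line is 1 clone or a pool of cells. No untreated culture was sampled at 24, 48 or 72 h, so time with TGFβ1 and time in culture cannot be told apart in NMuMG cells. Nor do the labels settle whether the untreated 4T1 cells, labelled 0 h, were also grown for 4 d, so time in culture may differ there as well.

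Entry into mitosis is driven by CDK1 bound to cyclin B and opposed until then by inhibitory phosphorylation, which CDC25 phosphatases remove. The spindle checkpoint holds the cell before chromosome separation, and the anaphase-promoting complex (APC/C) with CDC20 then releases it by degrading securin and cyclin B. Most genes of this set are transcribed late in the cell cycle, when the MuvB core with B-MYB and FOXM1 acts at a short promoter element called the CHR, and NF-Y acts at nearby CCAAT boxes. In resting cells the DREAM complex, which shares the MuvB core, represses the same promoters. In epithelial cells TGFβ1 is known as an inhibitor of proliferation, and in carcinoma cells that response is often weakened.

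CHR and CCAAT letters stood more often in the promoters of the set than in promoters in general. The collection of RefSeq promoters used here (GRCm38.p6), 250 bases before to 50 bases after the start site, held 40 of the 49 genes. It had no entry for Aurkb, Ccna2, Cdc25c, Dlgap5, Foxm1, Incenp, Kif20a, Smc4 and Tpx2, so the shares leave these out. The CHR letters TTTGAA or TTCGAA, on either strand, were in 31 of 40 (77.5%), against 21.7% of 27025 genes with such a promoter in the table, a gene with several counting once if any holds the letters. CCAAT, on either strand, was also in 31 of 40 (77.5%), against 41.1% of all genes. Both were found for 28 of 40 (70%), against 9.65% of all genes. The E2F letters TTCCCGC or TTGGCGC were in 6 of 40 (15%), against 7.79%. These are matches of letters, not measured sites.

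The 8 promoters below belong to genes whose values are given by library, 1 or more for most roles, and each holds a CHR match. They are printed 5′ to 3′ on the strand of the gene, with capitals marking CHR matches (TTTGAA or TTCGAA, or TTCAAA on the other strand) and CCAAT boxes (ATTGG on the other strand). Their positions on GRCm38.p6 are Cdk1 at chr10:69352863-69353162 (minus strand), Cdc20 at chr4:118437294-118437593 (minus strand), Plk1 at chr7:122159185-122159484 (plus strand), Bub1b at chr2:118597961-118598260 (plus strand), Ndc80 at chr17:71526808-71527107 (minus strand), Kif11 at chr19:37376132-37376431 (plus strand), Prc1 at chr7:80294201-80294500 (plus strand) and Top2a at chr11:99024140-99024439 (minus strand).
Cdk1: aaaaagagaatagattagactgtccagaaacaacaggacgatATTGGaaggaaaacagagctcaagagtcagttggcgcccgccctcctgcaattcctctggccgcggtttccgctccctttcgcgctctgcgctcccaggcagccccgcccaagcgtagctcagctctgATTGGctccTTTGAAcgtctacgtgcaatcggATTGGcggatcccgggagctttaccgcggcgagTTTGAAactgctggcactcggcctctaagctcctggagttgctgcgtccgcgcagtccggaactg
Cdc20: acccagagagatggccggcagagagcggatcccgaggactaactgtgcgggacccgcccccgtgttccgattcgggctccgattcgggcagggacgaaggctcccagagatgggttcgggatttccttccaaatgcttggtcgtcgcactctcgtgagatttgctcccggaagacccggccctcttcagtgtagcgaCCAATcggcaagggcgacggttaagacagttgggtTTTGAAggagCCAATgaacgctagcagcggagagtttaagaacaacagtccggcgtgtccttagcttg
Plk1: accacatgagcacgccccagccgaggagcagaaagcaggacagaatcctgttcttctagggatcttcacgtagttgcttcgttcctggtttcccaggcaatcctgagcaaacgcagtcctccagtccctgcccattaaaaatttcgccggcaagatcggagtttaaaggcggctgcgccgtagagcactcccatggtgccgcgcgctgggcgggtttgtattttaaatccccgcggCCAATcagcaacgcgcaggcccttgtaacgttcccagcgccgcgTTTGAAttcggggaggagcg
Bub1b: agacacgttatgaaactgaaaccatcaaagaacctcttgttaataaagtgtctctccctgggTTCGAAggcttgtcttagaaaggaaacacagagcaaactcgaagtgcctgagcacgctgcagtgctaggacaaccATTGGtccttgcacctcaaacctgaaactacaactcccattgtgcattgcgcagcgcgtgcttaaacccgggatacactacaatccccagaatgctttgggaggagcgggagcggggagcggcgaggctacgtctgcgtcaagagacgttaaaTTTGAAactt
Ndc80: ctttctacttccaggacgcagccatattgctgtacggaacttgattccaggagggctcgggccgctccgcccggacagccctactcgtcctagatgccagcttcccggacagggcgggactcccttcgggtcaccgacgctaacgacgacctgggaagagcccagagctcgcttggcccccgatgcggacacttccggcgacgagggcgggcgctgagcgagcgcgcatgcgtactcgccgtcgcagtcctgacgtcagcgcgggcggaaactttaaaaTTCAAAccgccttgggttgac
Kif11: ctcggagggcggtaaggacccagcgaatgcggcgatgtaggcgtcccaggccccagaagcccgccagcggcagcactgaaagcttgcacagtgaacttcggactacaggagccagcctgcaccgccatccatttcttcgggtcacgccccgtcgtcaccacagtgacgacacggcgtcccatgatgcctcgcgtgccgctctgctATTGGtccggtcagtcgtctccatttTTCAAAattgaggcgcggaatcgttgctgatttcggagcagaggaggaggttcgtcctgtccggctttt
Prc1: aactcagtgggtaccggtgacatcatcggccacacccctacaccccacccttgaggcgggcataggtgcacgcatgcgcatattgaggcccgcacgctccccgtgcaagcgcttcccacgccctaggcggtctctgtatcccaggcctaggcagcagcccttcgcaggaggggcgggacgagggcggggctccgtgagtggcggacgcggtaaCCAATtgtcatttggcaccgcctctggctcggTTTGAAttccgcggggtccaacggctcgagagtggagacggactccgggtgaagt
Top2a: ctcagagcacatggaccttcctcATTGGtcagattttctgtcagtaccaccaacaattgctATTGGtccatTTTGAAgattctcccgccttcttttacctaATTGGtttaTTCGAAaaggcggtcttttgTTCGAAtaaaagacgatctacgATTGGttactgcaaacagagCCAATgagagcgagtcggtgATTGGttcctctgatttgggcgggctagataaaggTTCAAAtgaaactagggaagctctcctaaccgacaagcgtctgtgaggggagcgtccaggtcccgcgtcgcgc
In Kif11 a CHR match began 19 bases before the start site (position −19) and a CCAAT box at position −45, and in Prc1 they began at positions −5 and −37. In Plk1 the CHR match lay after the start site, at position 31. No CCAAT box was found in these letters for Ndc80.

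Library totals were 16.2 to 21.9, 15.6 to 22.7 and 22.0 to 31.1 M counts in experiments 1, 2 and 3, and the biological coefficient of variation was 2.88%, 7.59% and 2.95%, so small changes were resolved best in experiments 1 and 3. The p-values measure the spread between labelled biological replicates. They do not measure a spread between independently made lines of a genotype, which the labels do not give. An effect of the alteration and other differences between the lines compared therefore cannot be told apart. Some libraries of experiment 2 stood apart from the others of their group. By chi-square per degree of freedom, shATF3 72 h replicate 2 was at 19.2 and 17.5 from the other two, which were at 5.69 from each other, shATF3 0 h replicate 1 at 10.6 and 10.9 (3.86 for the other two), shATF3 48 h replicate 3 at 8.52 and 8.55 (4.22 for the other two), pLKO 0 h replicate 1 at 5.13 and 4.95 (2.74 for the other two), and pLKO 72 h replicates 2 and 3 at 14.5 from each other. In 4T1, pLKO 0 h replicate 2 was at 6.18 and 5.81 (1.88 for the other two), and in experiment 1 all pairs lay between 1.75 and 2.64. Of 10 epithelial marker genes, 6 were at 1 CPM or more in every NMuMG group, while Epcam, Cldn3, Cldn7 and Esrp1 were below 1 CPM, and all 10 were above it in 4T1. Markers of fibroblasts, leukocytes, endothelium and basal cells reached 1 CPM for at most 1 gene per list in a group. Pbrm1 averaged 115, 105, 109 and 101 CPM in sgCT cells at 0, 24, 48 and 72 h and 97.2, 99.2, 94.1 and 89.03 CPM in sgPBRM1 cells. A guide RNA cuts a short stretch of the gene, and counts from the rest of the transcript check nothing about the protein. In 4T1, Pbrm1 averaged 236 and 223 CPM with pLKO at 0 h and 4 d, against 28.3 and 31.1 CPM with shPBRM1. Atf3 averaged 9.95, 26.9, 14.3 and 9.28 CPM in pLKO cells and 12.3, 17.8, 10.9 and 6.78 CPM in the libraries labelled ATF3 knockdown. At 0 h this difference went against the label, by 0.31 on the log2 scale (adjusted p = 0.106 in edgeR's test). With TGFβ1 the difference went with the label, by −0.59 at 24 h (adjusted p = 0.00135). It was −0.38 at 48 h (adjusted p = 0.0575) and −0.46 at 72 h (adjusted p = 0.0326). Atf3 also rose less in these libraries over the first 24 h, by a difference of −0.90 (adjusted p = 0.00181). Because of the 0 h levels, those libraries are named below by their label.

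In sgCT cells nearly all of the set fell at every step of the time course. At 24 h all 49 genes were lower than at 0 h, with a median log2 change of −0.63, where 29.5% of the 14345 genes tested were lower and the median over all of them was −0.005. From 24 to 48 h, 48 fell further (median −0.61; 18.2% of all genes), and from 48 to 72 h, 47 did (median −0.43; 16.2% of all genes). Those not past the threshold were Cdc25c, a CDK1-activating phosphatase gene (−0.22, adjusted p = 0.0978), in the first of these steps and the kinetochore gene Spc25 (−0.21, adjusted p = 0.0524) and the condensin gene Smc4 (−0.07, adjusted p = 0.146) in the later one. By 72 h the median change was −1.61, and 48 of 49 genes were at least 2-fold lower, against 12.2% of all genes. Throughout, log2 changes and adjusted p-values are from edgeR's quasi-likelihood test with Benjamini-Hochberg adjustment over all genes tested, with a threshold of 0.05, and ± after a log2 change is its SE. In bulk RNA, fewer cells in G2 and mitosis and less of these transcripts per cell cannot be told apart.

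In sgPBRM1 cells most of the same genes fell less in the first 24 h than in sgCT cells and then dropped steeply. At 24 h, 38 were lower and 2 higher than at 0 h, with a median log2 change of −0.24, where 29.7% of all genes were lower and 30.0% higher. From 24 to 48 h all 49 fell, by a median of −1.68, and 48 of them at least 2-fold, against 3.86% of all genes at least 2-fold lower and 22.2% lower at any size. From 48 to 72 h, 48 fell again, with a median of −0.91 (18.2% of all genes), and Anln, which encodes the actin-binding anillin of the cytokinetic ring, changed by −0.08 (adjusted p = 0.189). The median change at 72 h was −2.92, with 48 of 49 at least 2-fold lower (13.9% of all genes) and all 49 past the threshold (34.9% of all genes were lower). The comparisons with 0 h share the 0 h libraries of their genotype.

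**Figure D1:**
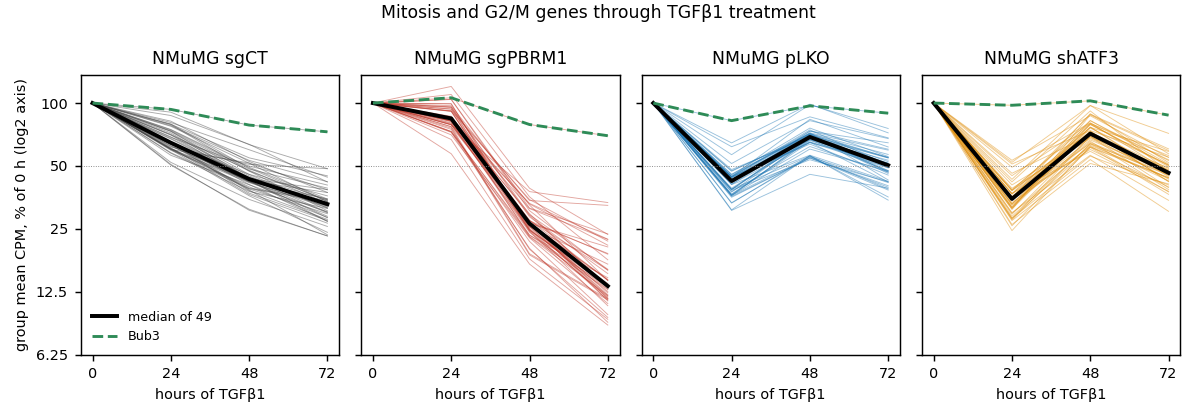
Each line is 1 of the 49 genes in 1 genotype of NMuMG cells, as the level in percent of its own 0 h level (log2 axis) against hours of TGFβ1, with the median in black and Bub3 as a dashed green line. The median reached 64.6%, 43.3% and 32.8% at 24, 48 and 72 h in sgCT, 84.4%, 26.5% and 13.3% in sgPBRM1, 42.3%, 68.8% and 50.3% in pLKO and 34.8%, 71.5% and 46.3% in the libraries labelled shATF3.

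The steps themselves set the genotypes of experiment 1 apart. In sgCT cells the largest of the 3 falls came between 0 and 24 h for 22 genes, between 24 and 48 h for 24 and between 48 and 72 h for 3 (Cenpa, Cenpe and Kif20a). In sgPBRM1 cells it came between 24 and 48 h for all 49. The change at 24 h was a median 35.7% of the change at 72 h in sgCT cells and 9.65% in sgPBRM1 cells, on the log2 scale. A level at least 2-fold below 0 h was first reached at 48 h by 39 genes and at 72 h by 9 in sgCT cells, and at 48 h by 48 genes in sgPBRM1 cells, with Bub3 reaching it in neither. At 48 h 9.92% of all genes were at least 2-fold below 0 h in sgCT and 12.4% in sgPBRM1 cells. The 9 late genes in sgCT cells were Cdc25c, Pttg1, Cenpa, Cenpe, Kif20a, Kif2c, Tpx2, Prc1 and Smc4.

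The difference between the genotypes' changes was tested gene by gene. For the first 24 h it was past the threshold for 47 of 49 genes, all with the higher log2 change (a smaller fall or a rise) in sgPBRM1 cells (median difference 0.36; 8.50% of all genes differed in that direction). The cyclin B2 gene Ccnb2 (0.06, adjusted p = 0.566) and Kif22, a chromosome-bound kinesin gene (0.14, adjusted p = 0.148), were not past it. From 24 to 48 h all 49 fell more in sgPBRM1 cells (median difference −1.09; 8.38% of all genes), and from 48 to 72 h 39 did (median −0.46; 7.18% of all genes). Over the whole 72 h, 48 fell more in sgPBRM1 cells (median −1.23; 15.8% of all genes), and Bub3 differed by −0.06 (adjusted p = 0.459). Over 48 h also 48 fell more there (13.5% of all genes). Neighbouring steps share the libraries of the time between them, so an opposite sign in the first and the next step is in part set by the 24 h libraries.

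**Figure D2:**
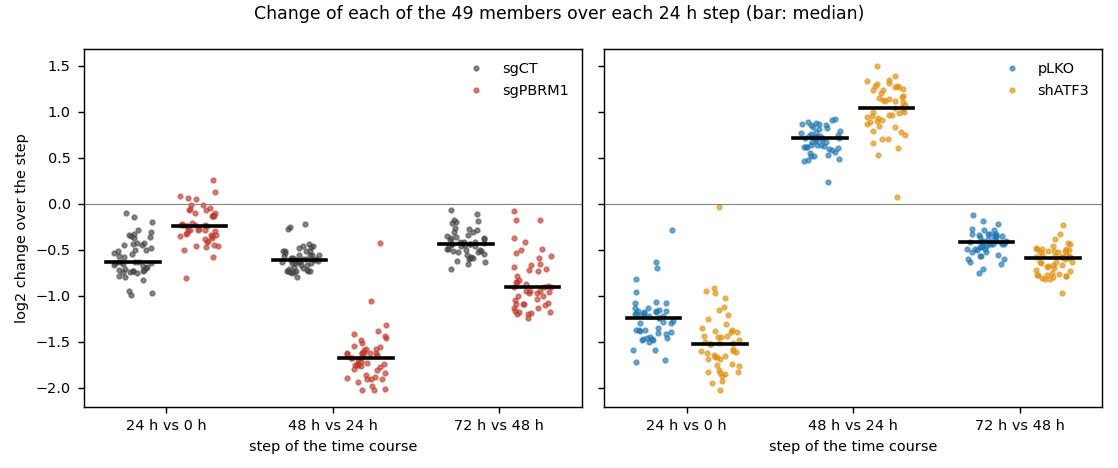
Each point is the log2 change of 1 of the 49 genes over 1 step of 24 h in 1 genotype, and the bar is the median of the 49. In sgCT the medians were −0.63, −0.61 and −0.43, in sgPBRM1 −0.24, −1.68 and −0.91, in pLKO −1.24, 0.71 and −0.42, and in the libraries labelled shATF3 −1.52, 1.05 and −0.59.

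Among the genes that switch on CDK1, Ccnb1, which encodes cyclin B1, read 161, 172 and 180.4 at 0 h, 126, 127 and 125 at 24 h, 78.1, 85.1 and 79.2 at 48 h and 60.7, 55.01 and 60.7 at 72 h CPM in sgCT cells. Its sgPBRM1 libraries gave 157, 147 and 151 at 0 h, 132, 140.3 and 143 at 24 h, 38.5, 39.7 and 40.7 at 48 h and 19.8, 17.3 and 19.1 at 72 h CPM. The sgPBRM1 libraries were the lower ones at 0 h, the higher ones at 24 h and the lower ones at 48 and 72 h, without overlap at any time. The log2 change over 72 h was −1.54 ± 0.0438 (adjusted p = 1.11e-38) in sgCT and −3.02 ± 0.0529 (adjusted p = 7.07e-50) in sgPBRM1 cells. Cdk1, the kinase itself, stood at 209, 203 and 212 at 0 h, 127, 137 and 134 at 24 h, 84.2, 91.04 and 85.8 at 48 h and 70.2, 70.7 and 76.2 at 72 h CPM in sgCT cells. With sgPBRM1 it stood at 174, 164 and 172 at 0 h, 144, 139.7 and 147 at 24 h, 52.9, 53.98 and 52.5 at 48 h and 37.3, 37.4 and 38.8 at 72 h CPM. At 24 h the sgPBRM1 libraries were above the sgCT libraries by 0.11 on the log2 scale (adjusted p = 0.00816), a call that was lost without sgCT 24 h replicate 1 or sgPBRM1 24 h replicate 3. At 72 h the difference was −0.94. For Cdc25b, a phosphatase that activates CDK1, the sgCT libraries gave 46.3, 46.4 and 50.9 at 0 h, 26.1, 29.7 and 26.9 at 24 h, 18.5, 18.9 and 16.8 at 48 h and 15.1, 14.2 and 15.5 at 72 h CPM. The sgPBRM1 libraries gave 42.3, 41.9 and 42.6 at 0 h, 30.9, 32.9 and 36.2 at 24 h, 11.04, 9.74 and 11.5 at 48 h and 6.92, 7.96 and 6.60 at 72 h CPM. Each step went down in both genotypes. Over the 6 genes of this role the median log2 change at 72 h was −1.57 in sgCT and −2.94 in sgPBRM1 cells, and all 6 were higher in sgPBRM1 cells at 24 h, where 23.1% of all genes were.

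Among the mitotic kinases, Plk1, which encodes polo-like kinase 1, read 102, 100.0 and 107 at 0 h, 74.6, 74.98 and 69.6 at 24 h, 47.9, 45.8 and 44.7 at 48 h and 34.6, 30.2 and 32.3 at 72 h CPM in sgCT cells. Its values in sgPBRM1 cells were 88.6, 95.4 and 90.8 at 0 h, 82.9, 85.1 and 83.4 at 24 h, 22.4, 22.7 and 22.8 at 48 h and 11.6, 10.3 and 13.4 at 72 h CPM. The fall to 24 h was −0.50 ± 0.0447 (adjusted p = 5e-15) in sgCT and −0.13 ± 0.0452 (adjusted p = 0.012) in sgPBRM1 cells, where it was lost without 0 h replicate 2. The difference between these falls was 0.37 ± 0.0636 (adjusted p = 7.87e-06). Aurkb, the Aurora kinase of the chromosomal passenger complex, was among the 3 genes of the set with the largest fall to 24 h in sgCT cells, at −0.94 ± 0.0527 (adjusted p = 8.76e-24). The sgCT libraries read 101, 99.8 and 105 at 0 h, 52.4, 56.01 and 50.8 at 24 h, 32.7, 37.3 and 35.8 at 48 h and 26.7, 24.7 and 27.1 at 72 h CPM. Those of sgPBRM1 read 86.02, 75.97 and 85.3 at 0 h, 57.9, 61.8 and 61.3 at 24 h, 19.1, 17.2 and 20.2 at 48 h and 11.8, 8.84 and 8.94 at 72 h CPM. The 24 h libraries overlapped neither those of 0 h nor those of 48 h in either genotype. The median of the 4 kinases at 72 h was −1.76 in sgCT and −2.94 in sgPBRM1 cells.

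Among the spindle checkpoint genes was Bub3, the exception of the set by 72 h. Bub1b, which encodes the checkpoint protein BUBR1, read 213, 213 and 209.7 at 0 h, 160.2, 172 and 173 at 24 h, 102, 105 and 104 at 48 h and 71.2, 68.8 and 75.3 at 72 h CPM in sgCT cells. In sgPBRM1 cells the values were 182, 168 and 185 at 0 h, 169, 174 and 170.4 at 24 h, 50.01, 50.02 and 52.7 at 48 h and 28.7, 26.97 and 25.9 at 72 h CPM, so that the 0 h and 24 h libraries overlapped and those of 48 and 72 h stood apart. Its change at 24 h was −0.06 (adjusted p = 0.135) in sgPBRM1 cells, against −0.33 (adjusted p = 8.38e-13) in sgCT cells. Bub3, a checkpoint protein that also has roles outside mitosis, read 131, 128 and 132 at 0 h, 119, 121 and 125 at 24 h, 101, 105 and 100.2 at 48 h and 97.9, 90.9 and 95.9 at 72 h CPM in sgCT cells. It read 115, 115 and 117 at 0 h, 122, 115 and 130.3 at 24 h, 88.2, 96.3 and 89.6 at 48 h and 82.6, 80.4 and 79.3 at 72 h CPM in sgPBRM1 cells. By 72 h it had fallen in both, with log2 changes of −0.46 ± 0.0392 (adjusted p = 5.24e-16) and −0.52 ± 0.04 (adjusted p = 5.91e-18), and it was the 1 gene of 49 that never came to 2-fold. At 24 h its call in sgCT cells (−0.10, adjusted p = 0.0174) was lost without 0 h replicate 3 or 24 h replicate 1. Over the 5 checkpoint genes the median at 72 h was −1.56 in sgCT and −2.72 in sgPBRM1 cells.

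Of the genes that carry out separation, Cdc20, the activator of the APC/C, read 115, 115 and 114 at 0 h, 92.8, 92.5 and 85.6 at 24 h, 51.98, 54.1 and 56.5 at 48 h and 37.2, 31.9 and 35.6 at 72 h CPM in sgCT cells. With sgPBRM1 it read 115, 110.2 and 109 at 0 h, 97.9, 106 and 103 at 24 h, 25.3, 25.7 and 30.3 at 48 h and 12.2, 10.8 and 12.8 at 72 h CPM, starting near the sgCT level and ending between 10.8 and 12.8 CPM. The fall at 24 h in sgPBRM1 cells, −0.13 ± 0.0443 (adjusted p = 0.0101), was lost without 0 h replicate 1 or 24 h replicate 1, and the fall from 24 to 48 h was −1.91 ± 0.0546 (adjusted p = 1.5e-37). Ube2c, the ubiquitin-conjugating enzyme of the APC/C, and Sgol1, the shugoshin that protects cohesin at centromeres, fell from 24 to 48 h in sgPBRM1 cells, with log2 changes of −2.02 ± 0.0463 (adjusted p = 5.54e-42) and −2.02 ± 0.0773 (adjusted p = 3.05e-31). With the checkpoint kinase gene Ttk, at −2.02 ± 0.087 (adjusted p = 1.1e-28), they were the 3 largest falls of that step. The median over the 5 genes of separation at 72 h was −1.80 in sgCT and −3.11 in sgPBRM1 cells.

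**Figure D3:**
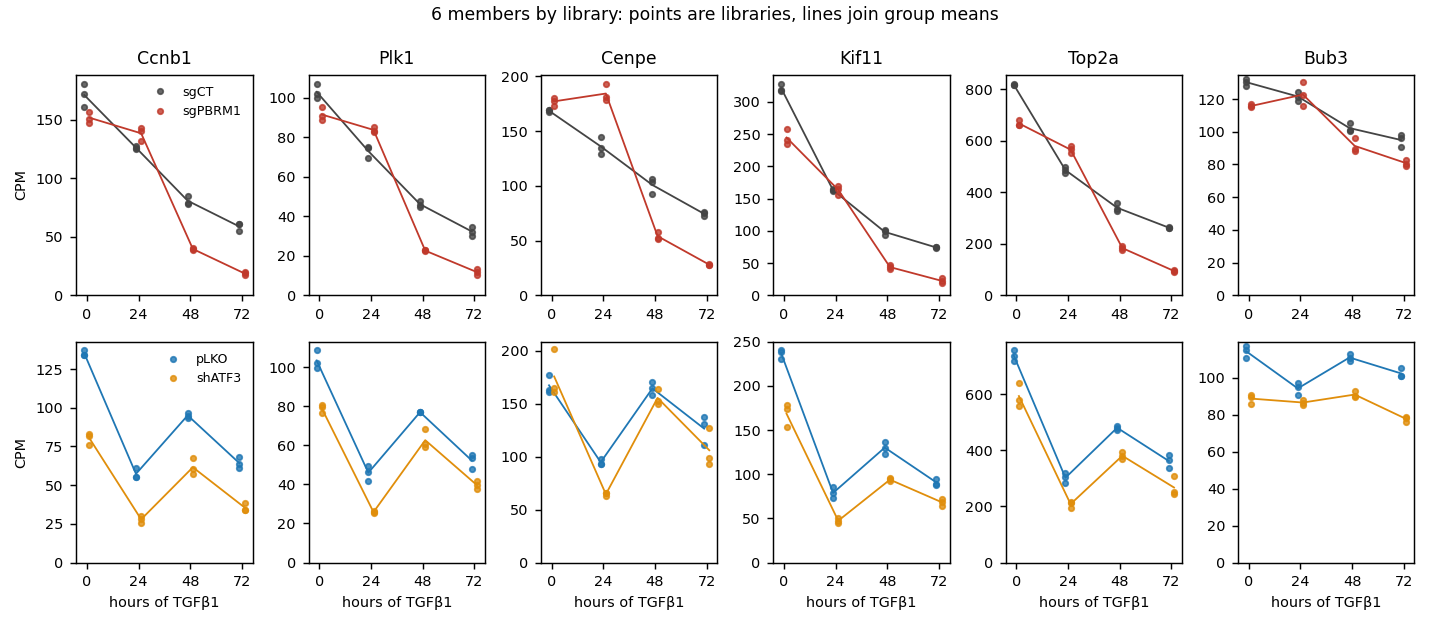
Each panel is 1 gene and each point 1 library, as CPM against hours of TGFβ1 in NMuMG cells, with lines joining the group means of each genotype. For Ccnb1, Plk1, Cenpe, Kif11 and Top2a the sgPBRM1 libraries lay below the sgCT libraries at 48 and 72 h, and Bub3 moved over a narrower range.

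At the kinetochore, Cenpe, a kinesin that moves chromosomes to the spindle equator, read 167, 169 and 169 at 0 h, 129, 145 and 134 at 24 h, 92.98, 103 and 106 at 48 h and 76.2, 74.8 and 72.3 at 72 h CPM in sgCT cells. With sgPBRM1 the values were 178, 173 and 180.3 at 0 h, 181, 193 and 178 at 24 h, 52.3, 51.9 and 58.1 at 48 h and 27.9, 27.8 and 28.3 at 72 h CPM. It had thus fallen at 24 h in sgCT cells (−0.31 ± 0.0388, adjusted p = 4.14e-10) while the 24 h libraries of sgPBRM1 overlapped those of 0 h (0.06, adjusted p = 0.199). Cenpe was the gene with the largest excess in sgPBRM1 over sgCT cells at 24 h, 0.44 ± 0.0388 (adjusted p = 1.02e-14), and the excess turned to −1.41 ± 0.0551 (adjusted p = 1.54e-30) at 72 h. Ndc80, which encodes the microtubule-binding subunit of the outer kinetochore, read 62.5, 68.4 and 63.4 at 0 h, 43.4, 39.4 and 42.6 at 24 h, 22.2, 25.7 and 24.1 at 48 h and 21.4, 15.6 and 16.3 at 72 h CPM in sgCT cells. Its libraries gave 53.4, 52.4 and 49.7 at 0 h, 45.8, 43.9 and 42.7 at 24 h, 11.8, 16.1 and 13.5 at 48 h and 6.29, 5.88 and 5.37 at 72 h CPM with sgPBRM1. The fall from 48 to 72 h in sgPBRM1 cells, −1.24 ± 0.117 (adjusted p = 2.02e-13), was the largest of that step. Cenpa, the histone H3 variant of centromeres, rose at 24 h in sgPBRM1 cells, with a log2 change of 0.13 ± 0.0444 (adjusted p = 0.00743), a call lost under scaling by library totals alone and without any of 3 libraries (0 h replicate 1, 24 h replicates 2 and 3). The 6 genes of this role had a median of −1.61 at 72 h in sgCT and −2.73 in sgPBRM1 cells.

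Kinesins gave some of the deepest falls. Kif11, the motor that pushes spindle poles apart, read 317, 318 and 327 at 0 h, 162, 165 and 163 at 24 h, 93.9, 101 and 100.5 at 48 h and 72.7, 74.6 and 75.01 at 72 h CPM in sgCT cells. In sgPBRM1 cells it read 258, 241 and 235 at 0 h, 156, 169 and 166 at 24 h, 43.3, 40.98 and 47.4 at 48 h and 26.3, 21.9 and 19.5 at 72 h CPM, down to between 19.5 and 26.3 CPM. The log2 change over 72 h was −2.11 ± 0.043 (adjusted p = 2.89e-46) in sgCT and −3.45 ± 0.0522 (adjusted p = 3.03e-53), or 10.9-fold, in sgPBRM1 cells. Kif23, a kinesin of the central spindle, changed by −2.10 ± 0.0452 (adjusted p = 6.2e-45) and −3.49 ± 0.0528 (adjusted p = 3.08e-53) over the same time. It had the largest fall of the set from 48 to 72 h in sgCT cells, −0.71 ± 0.0496 (adjusted p = 2.36e-18). Kif4, the chromosome-bound kinesin, fell from 48 to 72 h in sgPBRM1 cells, at −1.20 ± 0.0879 (adjusted p = 1.25e-17), next to the checkpoint kinase gene Bub1 at −1.20 ± 0.0826 (adjusted p = 8.13e-19). The median of the 6 kinesins at 72 h was −1.55 in sgCT and −3.09 in sgPBRM1 cells.

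In cytokinesis, Ect2, the exchange factor that activates RhoA at the division plane, fell most of all 49 in both genotypes at 72 h. It came to 23.1% of its 0 h level in sgCT cells (−2.11 ± 0.0395, adjusted p = 3.14e-48) and 8.65% in sgPBRM1 cells (−3.53 ± 0.0468, adjusted p = 2.9e-56, or 11.6-fold). It was also the gene with the largest fall at 24 h in both, −0.99 (adjusted p = 1.89e-33) and −0.81 (adjusted p = 9.08e-29). Prc1, which bundles microtubules of the central spindle, read 152, 149 and 157 at 0 h, 139, 138 and 138 at 24 h, 93.98, 95.6 and 100.3 at 48 h and 75.9, 69.8 and 76.6 at 72 h CPM in sgCT cells. The sgPBRM1 values were 137, 137 and 129.5 at 0 h, 165, 161 and 158 at 24 h, 52.2, 55.4 and 50.1 at 48 h and 32.1, 31.7 and 30.9 at 72 h CPM. Each 24 h library was above each 0 h library there, and Prc1 rose by 0.26 ± 0.0356 (adjusted p = 2.66e-09). In sgCT cells its change at 24 h was −0.14 ± 0.0353 (adjusted p = 0.000325). By 72 h it had fallen in both, with changes of −1.04 and −2.09. The 7 genes of this role had a median of −1.60 in sgCT and −2.92 in sgPBRM1 cells at 72 h.

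Chromosome structure genes included the most abundant transcripts of the set. Top2a, the topoisomerase that untangles sister chromosomes, read 820.2, 815 and 818 at 0 h, 476, 497 and 485 at 24 h, 327, 357 and 335 at 48 h and 262, 259.7 and 266 at 72 h CPM in sgCT cells. In sgPBRM1 cells it read 681, 659 and 661 at 0 h, 567, 578 and 551 at 24 h, 183, 190.0 and 178 at 48 h and 98.8, 91.8 and 93.3 at 72 h CPM. It lost 0.75 on the log2 scale in the first 24 h in sgCT cells and 0.24 in sgPBRM1 cells, a difference of 0.51 ± 0.0401 (adjusted p = 7.32e-16). Mki67, the proliferation marker that coats mitotic chromosomes, read 712, 727 and 723 at 0 h, 383, 425 and 408 at 24 h, 281, 301 and 296 at 48 h and 218, 219.6 and 214 at 72 h CPM in sgCT cells. Its sgPBRM1 libraries read 645, 618 and 617 at 0 h, 440.5, 447 and 437 at 24 h, 138, 143 and 144 at 48 h and 69.3, 68.5 and 68.4 at 72 h CPM. The fall at 24 h in sgPBRM1 cells, −0.51 ± 0.029 (adjusted p = 2.73e-23), was among the 3 largest of that step with Ect2 and Kif11. Ncapg, a condensin subunit, read 90.7, 91.4 and 92.5 at 0 h, 58.6, 55.3 and 51.3 at 24 h, 35.6, 39.98 and 39.8 at 48 h and 28.95, 27.6 and 29.9 at 72 h CPM in sgCT cells. Ncapg in sgPBRM1 libraries read 82.7, 81.1 and 79.5 at 0 h, 70.5, 65.1 and 63.99 at 24 h, 21.9, 25.8 and 24.2 at 48 h and 11.5, 10.00 and 10.4 at 72 h CPM, the 24 h values again nearer to 0 h than in sgCT cells. The median of the 6 genes at 72 h was −1.65 in sgCT and −2.80 in sgPBRM1 cells.

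The 1 transcription factor of the set, Foxm1, activates late cell cycle genes and read 169.9, 162 and 156 at 0 h, 112, 109.7 and 109 at 24 h, 70.6, 76.7 and 67.9 at 48 h and 57.8, 54.3 and 55.7 at 72 h CPM in sgCT cells. Foxm1 in sgPBRM1 cells read 153, 147 and 151 at 0 h, 128, 121 and 119 at 24 h, 35.8, 40.7 and 43.05 at 48 h and 22.9, 19.1 and 21.8 at 72 h CPM. It fell with the genes of the other roles, its change over 72 h being −1.54 ± 0.0467 (adjusted p = 3.16e-37) in sgCT and −2.82 ± 0.0545 (adjusted p = 1.24e-47) in sgPBRM1 cells. Levels per kilobase used the gene lengths given for experiment 1, and those given for experiment 3 differ for some genes. Kif11 has 4819 bases in experiment 1 and 7461 in experiment 3, Incenp 3217 and 4329, and Cdc25c 1941 and 4919. The order of genes below therefore depends on the lengths used. With those of experiment 1, Top2a (90.7 CPM per kb), the passenger complex gene Incenp (75.7), Mki67 (71.6) and Kif11 (66.5) were the highest of the 49 in sgCT cells at 0 h. Ttk (9.43 CPM per kb), the spindle protein gene Dlgap5 (9.47) and Cdc25c (9.48), another CDK1 phosphatase, were the lowest. At 72 h in sgPBRM1 cells the order had changed, with Incenp (14.1 CPM per kb), the condensin gene Smc4 (13.4), Bub3 (11.5) and Top2a (10.5) at the top and Ndc80 (0.9) at the bottom.

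**Figure D4:**
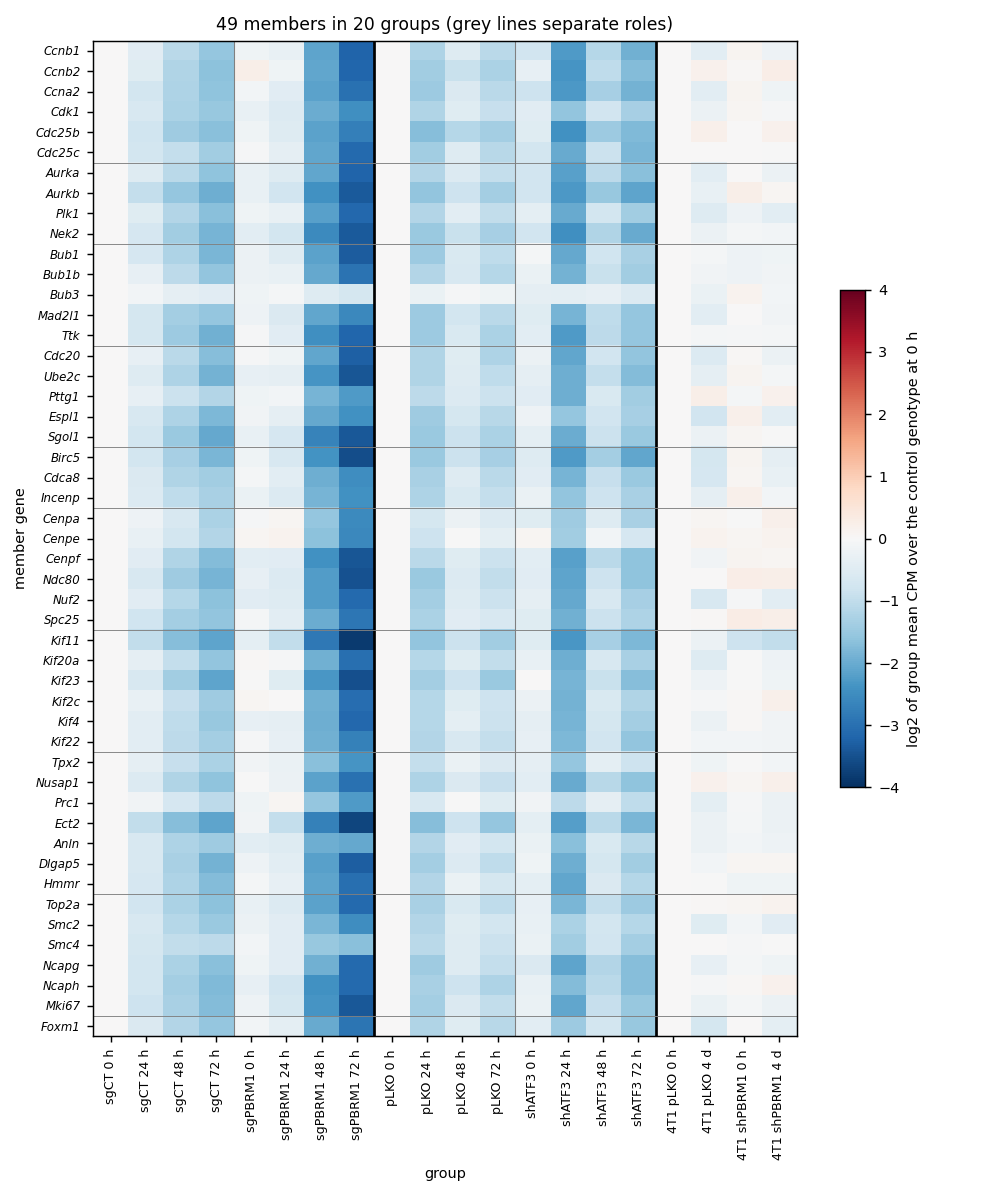
Each row is 1 of the 49 genes, grouped by role between grey lines, and each column is 1 of the 20 groups. The colour is log2 of the group's mean CPM over that of the control genotype at 0 h in the same experiment. The sgPBRM1 columns at 48 and 72 h were the most strongly coloured of experiment 1, and the 4T1 columns were paler, the deepest colour there being that of Kif11 in shPBRM1 cells.

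Set against each other at the same time, sgPBRM1 and sgCT cells crossed over between 0 and 48 h. Without TGFβ1, 35 of 49 genes were lower in sgPBRM1 cells and 1, the cyclin gene Ccnb2, was higher (0.24 ± 0.0387, adjusted p = 6.22e-07), with a median of −0.18 (23.2% of all genes were lower). The largest differences were those of the kinetochore genes Nuf2 (−0.45) and Cenpf (−0.43) and the centrosomal kinase gene Nek2 (−0.43). At 24 h none was lower and 34 were higher (median 0.16; 23.1% of all genes), led by Cenpe, Cdc25c (0.39 ± 0.0989, adjusted p = 0.000909) and the kinetochore gene Spc25 (0.37 ± 0.0714, adjusted p = 1.74e-05). At 48 h all 49 were lower (median −0.90; 25.6% of all genes), 16 of them at least 2-fold (4.75% of all genes). Cenpf (−1.23), Sgol1 (−1.21) and Kif11 (−1.17) differed most. At 72 h all 49 were lower (median −1.40; 25.6% of all genes), 44 at least 2-fold (5.05% of all genes). The largest differences were those of Cdc25c (−1.74 ± 0.161, adjusted p = 3.32e-14), the survivin gene Birc5 (−1.73 ± 0.0786, adjusted p = 1.99e-27) and Kif11 (−1.72 ± 0.0603, adjusted p = 7.63e-33). The summed CPM of the 49 gave the same order, with 7657 to 7783, 4998 to 5178, 3328 to 3518 and 2530.4 to 2637 in sgCT cells and 6650.1 to 6786, 5617 to 5719, 1793 to 1886 and 1074 to 1119.5 in sgPBRM1 cells at the 4 times.

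Replication genes, and further spindle and kinetochore genes outside the set, were read at 24 h as well. These lists were chosen with earlier results of these data known, so their counts are descriptions. Of 40 DNA replication and S phase genes, 38 were lower at 24 h in sgPBRM1 cells (median −0.53), where 29.7% of all genes were lower, led by Chaf1b (−1.14), Cdc6 (−1.06) and Uhrf1 (−1.01), against the mitotic median of −0.24. Between genotypes at 24 h, 20 of the 40 replication genes were lower and 1 higher in sgPBRM1 cells (median −0.13; 23.7% and 23.1% of all genes), where 21 of 35 further spindle, kinesin and cytokinesis genes were higher and 3 lower (median 0.16). Among 32 further kinetochore and centromere genes 9 were higher, a share near that of all genes, and 0 lower. The difference between the genotypes' 24 h changes was past the threshold for 12 of 40 replication genes (median 0.14), 29 of 35 spindle genes (median 0.31) and 17 of 32 kinetochore genes with the higher log2 change in sgPBRM1 cells (8.50% of all genes), and for 1 spindle gene with the lower one (9.88% of all genes). By 72 h in sgPBRM1 cells 40 of 40 replication genes, 35 of 35 spindle genes and 31 of 32 kinetochore genes were lower (34.9% of all genes), with medians of −2.00, −2.79 and −2.42. The kinetochore genes with the largest falls were Ska1 (−3.49), Spc24 (−3.31) and Cenpk (−3.25).

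Control cells of experiment 2 went through another time course: the set fell to its lowest level within 24 h and came back in part. In pLKO cells all 49 genes were lower at 24 h than at 0 h (median −1.24; 26.5% of all genes), 44 of them at least 2-fold (8.66% of all genes). Cdc25b (−1.72 ± 0.112, adjusted p = 3.12e-13), Ect2 (−1.70 ± 0.064, adjusted p = 1.74e-18) and Aurkb (−1.59 ± 0.0854, adjusted p = 4.28e-15) fell most. Between 24 and 48 h all 49 rose (median 0.71; 11.0% of all genes), led by Ndc80 (0.93 ± 0.0963, adjusted p = 3.7e-08), Hmmr, a spindle protein gene (0.91 ± 0.0958, adjusted p = 4.45e-08), and Ncapg (0.89 ± 0.0877, adjusted p = 1.45e-08). From 48 to 72 h, 45 fell again (median −0.42; 7.25% of all genes), with Cdc20 (−0.75 ± 0.112, adjusted p = 3.1e-05), Ect2 (−0.71 ± 0.0637, adjusted p = 1.3e-08) and Kif23 (−0.65 ± 0.0613, adjusted p = 2.68e-08) leading. At 72 h all 49 were below 0 h (median −0.99; 29.1% of all genes), 24 of them at least 2-fold, against 10.1% of all genes. The lowest of the 4 groups was 24 h for 47 genes and 72 h for Cdc20 and Kif23. Experiments 1 and 2 were scaled and tested apart, and the difference between their control time courses was not tested.

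By library, Ccnb1 in pLKO cells read 134, 134 and 137 at 0 h, 55.02, 61.4 and 55.4 at 24 h, 94.6, 96.8 and 93.6 at 48 h and 67.9, 61.2 and 63.5 at 72 h CPM. Kif11 read 240.4, 239 and 230.1 at 0 h, 72.8, 78.4 and 85.2 at 24 h, 137, 123 and 130.1 at 48 h and 89.2, 87.7 and 94.97 at 72 h CPM. In both genes the 48 h libraries lay between those of 24 h and 0 h, with no overlap. The 24 h libraries were the lowest for Kif11, and for Ccnb1 1 of them lay among those of 72 h. Cdc25b read 34.2, 36.3 and 32.4 at 0 h, 10.9, 12.1 and 8.52 at 24 h, 13.3, 17.3 and 16.3 at 48 h and 14.1, 11.6 and 14.6 at 72 h CPM, and its return from 24 to 48 h was 0.58 ± 0.117 (adjusted p = 0.000478). Prc1 read 132, 138 and 140.1 at 0 h, 87.3, 92.4 and 84.9 at 24 h, 139, 135 and 132 at 48 h and 106, 89.9 and 99.3 at 72 h CPM, so that its 48 h libraries were back among those of 0 h (−0.02, adjusted p = 0.853). Cenpe (−0.03, adjusted p = 0.833) and Bub3 (−0.04, adjusted p = 0.424) were also not past the threshold at 48 h against 0 h, and the other 46 were lower (26.7% of all genes). Top2a read 759, 737 and 719.5 at 0 h, 283, 306 and 318 at 24 h, 481, 487 and 474 at 48 h and 367, 336 and 383 at 72 h CPM.

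The libraries labelled shATF3 also fell by 24 h, rose by 48 h and fell again by 72 h. At 24 h, 48 of 49 genes were lower than at 0 h (median −1.52; 24.2% of all genes), 45 at least 2-fold (9.65% of all genes). Ccnb2 (−2.03 ± 0.0932, adjusted p = 1.53e-16), Bub1 (−1.95 ± 0.0839, adjusted p = 3.67e-17) and Cdc25b (−1.93 ± 0.121, adjusted p = 1.25e-13) fell most, and Bub3 changed by −0.03 (adjusted p = 0.564). Between 24 and 48 h, 48 rose (median 1.05; 10.1% of all genes), 27 at least 2-fold (2.11% of all genes), led by Hmmr (1.504 ± 0.102, adjusted p = 1.24e-11), Nuf2 (1.39 ± 0.0991, adjusted p = 2.78e-11) and Ccnb2 (1.34 ± 0.0943, adjusted p = 2.29e-11). From 48 to 72 h, 48 fell (median −0.59; 9.64% of all genes), the most Cdc25c (−0.97 ± 0.172, adjusted p = 0.000125), and Cdc25b changed by −0.32 (adjusted p = 0.0556). At 72 h all 49 were below 0 h (median −1.11; 26.6% of all genes), led by Kif23 (−1.72 ± 0.0619, adjusted p = 5.03e-19), Birc5 (−1.55 ± 0.0667, adjusted p = 2.91e-17) and Ect2 (−1.45 ± 0.0645, adjusted p = 5.74e-17). Ccnb1 in these libraries read 75.9, 83.2 and 81.7 at 0 h, 25.3, 30.1 and 28.4 at 24 h, 57.04, 67.4 and 60.2 at 48 h and 34.1, 33.96 and 38.6 at 72 h CPM. For Kif11 they gave 178, 174 and 154 at 0 h, 50.1, 44.8 and 47.1 at 24 h, 95.2, 94.1 and 92.3 at 48 h and 64.4, 72.1 and 68.6 at 72 h CPM. For both genes the 24 h libraries were the lowest. Top2a stood at 640.4, 581 and 559.5 at 0 h, 196, 212 and 218 at 24 h, 369, 395 and 378 at 48 h and 244, 307 and 251 at 72 h CPM. Plk1 stood at 80.5, 79.6 and 76.5 at 0 h, 25.3, 25.99 and 26.2 at 24 h, 59.04, 68.2 and 60.6 at 48 h and 37.5, 41.7 and 39.6 at 72 h CPM, against 99.5, 109 and 102 at 0 h, 41.97, 49.4 and 46.5 at 24 h, 77.1, 76.8 and 76.9 at 48 h and 53.7, 48.05 and 54.96 at 72 h CPM in pLKO cells. In each of these genes the 24 h libraries labelled shATF3 were the lowest, and those of 48 h lay above those of 72 h.

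Between genotypes, the libraries labelled shATF3 held less of the set at every time. The set's genes were lower for 43 of 49 at 0 h (median −0.38; 18.4% of all genes), 47 at 24 h (−0.67; 16.6%), 34 at 48 h (−0.29; 13.8%) and 48 at 72 h (−0.46; 15.0%), and none was higher at any time. Leaving out single libraries gave 39 to 42, 45 to 47, 26 to 32 and 44 to 46 genes at the 4 times. The summed level of the 5 leukocyte markers, nearly all of it Cd68, was 7.91 to 8.86 CPM at 72 h in the libraries labelled shATF3 and 2.09 to 3.08 CPM in pLKO, with Cd3e and Lyz2 at 0 in both, and its part in the result was not tested. Ccna2, which encodes cyclin A2, differed most at 0 h (−0.84 ± 0.0664, adjusted p = 8.61e-11) and at 48 h (−0.75 ± 0.0679, adjusted p = 2.06e-09). Cenpf (−1.09 ± 0.121, adjusted p = 5.92e-08) and Ccnb1 (−1.04 ± 0.0734, adjusted p = 1.23e-11) differed most at 24 h, and Ccnb1 again at 72 h (−0.85 ± 0.0718, adjusted p = 4.24e-10). Aurkb was among the 3 largest differences at 0, 48 and 72 h (−0.78, −0.67 and −0.74). At 24 h Espl1, the separase gene (−0.15, adjusted p = 0.116), and Smc2, a condensin gene (−0.08, adjusted p = 0.46), were not past the threshold, and at 72 h Sgol1 was not (−0.23, adjusted p = 0.135). Summed over the set, pLKO libraries held 6900.0 to 7039, 2803 to 3069, 4764 to 4811 and 3356 to 3713 CPM at the 4 times, and those labelled shATF3 5294 to 5718, 1922 to 2029, 3806 to 3982 and 2492 to 2794 CPM.

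Fewer genes of the set differed between the genotypes in their changes than in experiment 1, a contrast between experiments that was not tested. The spread differed too: the median SE of the difference in the 24 h change was 0.115, against 0.063 in experiment 1. Differences of the same size were therefore harder to call in experiment 2. Over the first 24 h, 19 genes fell more in the libraries labelled shATF3 (10.9% of all genes), led by Cenpf (−0.67 ± 0.165, adjusted p = 0.00426), Cdc20 (−0.65 ± 0.161, adjusted p = 0.00444) and Ccnb2 (−0.64 ± 0.127, adjusted p = 0.000524), and Bub3 went the other way (0.25 ± 0.0635, adjusted p = 0.00635). In the next 24 h, 21 rose more there (4.34% of all genes), led by Ccnb2 (0.85 ± 0.129, adjusted p = 7.22e-05), Pttg1, the securin gene (0.82 ± 0.208, adjusted p = 0.0131), and Kif20a, a cytokinesis kinesin (0.67 ± 0.103, adjusted p = 8.98e-05). The call of Pttg1 was lost without shATF3 24 h replicate 1, and that of Cdc20 over the same step was lost without any of 4 libraries. From 48 to 72 h no gene of the set was past the threshold in edgeR's test, where 0.587% of all genes were lower. In that test 17 of 49 had an unadjusted p below 0.05, and in DESeq2 2 were past the threshold. The shares of all genes at the unadjusted cutoff and in DESeq2 are not given here, so 0.587% is no measure for these counts. Over the whole 72 h, 2 fell more, Prc1 (−0.39 ± 0.0984, adjusted p = 0.00673) and Ube2c (−0.36 ± 0.0982, adjusted p = 0.013), a share below the 7.19% of all genes, and the count was 9 without shATF3 72 h replicate 2, 4 without pLKO 72 h replicate 2 and 1 without pLKO 72 h replicate 1. Over 48 h, 2 rose or fell less there (4.23% of all genes), Nek2 (0.43 ± 0.12, adjusted p = 0.0179) and Tpx2, a spindle assembly gene (0.24 ± 0.0748, adjusted p = 0.0349), and leaving out single libraries gave 0 to 2.

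Most replication genes also fell and rose again in pLKO cells. In pLKO cells 40 of 40 were lower at 24 h than at 0 h (median −1.08; 26.5% of all genes). From 24 to 48 h 31 rose (median 0.40; 11.0% of all genes), beside 33 of 35 spindle genes (median 0.65) and 28 of 32 kinetochore genes (median 0.62). At 24 h 10 of 40 replication genes were lower and 3 higher in the libraries labelled shATF3 than in pLKO cells (median −0.09; 16.6% and 15.2% of all genes), where 47 of the 49 mitotic genes were lower. The difference between the 24 h changes went the other way for 21 of 40 replication genes, with the higher log2 change in the libraries labelled shATF3 (median 0.30; 7.74% of all genes).

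In 4T1 carcinoma cells, 4 d with TGFβ1 changed the set by less than 2-fold. In pLKO cells 35 genes were lower and 7 higher than without TGFβ1, with a median of −0.23, where 35.4% of the 13854 genes tested were lower and 39.1% higher. The cell lines were measured and scaled apart, at different times, and were not tested against each other. Summed markers of leukocytes, fibroblasts and basal cells were also higher with TGFβ1 in pLKO cells, each sum carried mostly by 1 gene. In pLKO cells the summed level of 5 leukocyte markers was 5.02 to 5.77 CPM without and 15.4 to 17.8 CPM with TGFβ1 (mostly Cd68). That of 5 fibroblast markers was 13.3 to 14.4 and 23.8 to 27.0 CPM (Pdgfra), and that of 5 basal markers 6.60 to 6.87 and 15.6 to 17.5 CPM (Krt14). In shPBRM1 cells these sums were 5.20 to 6.59 and 13.6 to 15.8 CPM, 21.9 to 22.2 and 29.4 to 33.4 CPM, and 12.6 to 13.4 and 10.4 to 13.2 CPM. The sum of 5 endothelial markers was 0.154 to 0.435 CPM without and 0.0873 to 0.476 CPM with TGFβ1 in pLKO cells, with overlap. In shPBRM1 cells it was 0.135 to 0.300 and 0.383 to 0.686 CPM. Dpt, Lum, Thy1 and Krt5 were at 0 in all 4 groups, and the part of all these markers in the results was not tested. Espl1 (−0.78 ± 0.0401, adjusted p = 1.48e-18), Birc5 (−0.71 ± 0.0337, adjusted p = 1.18e-19) and Foxm1 (−0.70 ± 0.0323, adjusted p = 7.5e-20) fell most. The 7 that were higher were Pttg1 (0.25), Cdc25b (0.19), Nusap1 (0.17), Ccnb2 (0.17), Cenpe (0.14), Cenpa (0.09) and Top2a (0.06). The calls of Cenpa and Top2a were lost when single libraries were left out, Cenpa without pLKO 0 h replicate 1 and Top2a without any of 5 (each pLKO 0 h library and 4 d replicates 1 and 3). Foxm1 read 234, 224 and 222 CPM without and 139.7, 135 and 145 CPM with TGFβ1, with no overlap. Top2a read 1101, 1079 and 1101 CPM without and 1163, 1075 and 1182 CPM with it, with overlap.

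In 4T1 cells with shPBRM1, 28 genes were lower and 8 higher after 4 d (34.7% and 35.2% of all genes), with a median of −0.10. The 3 largest falls were those of the same genes, Espl1 (−0.63 ± 0.0384, adjusted p = 2.39e-16), Birc5 (−0.47 ± 0.0327, adjusted p = 7.6e-15) and Foxm1 (−0.40 ± 0.0317, adjusted p = 2.16e-13). The higher ones were Pttg1 (0.22), Ccnb2 (0.22), Cenpa (0.20), Cdc25b (0.15), Kif2c, a microtubule-depolymerizing kinesin (0.15), Nusap1, a spindle protein gene (0.12), Ncaph, a condensin gene (0.11), and Top2a (0.06). Foxm1 read 230.4, 227 and 229.5 CPM without and 173, 181 and 167 CPM with TGFβ1. The call of Ncaph was lost without 0 h replicate 2, and that of Top2a without any of 5 libraries (each 0 h library and 4 d replicates 1 and 2).

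Kif11 was the outstanding gene of the shPBRM1 comparison in 4T1 cells. It read 247, 255 and 255 CPM in pLKO cells without TGFβ1 and 214, 209 and 225 CPM with it, against 142, 145 and 142 and 124, 129.8 and 126 CPM in shPBRM1 cells. Every shPBRM1 library was below every pLKO library, with a log2 difference of −0.82 ± 0.0307 (adjusted p = 1.66e-21), or 1.77-fold, at 0 h and −0.77 ± 0.031 (adjusted p = 9.08e-21) at 4 d. The change with TGFβ1 itself differed by 0.05 (adjusted p = 0.397). The set as a whole, Kif11 included, was close to balance at 0 h, with 11 genes lower and 15 higher and a median of 0.02, near the 23.5% and 27.5% of all genes that were lower and higher. Which direction held more genes turned with the libraries: 12 lower and 9 higher without shPBRM1 0 h replicate 1, 10 and 9 without replicate 2, and 13 and 11 without replicate 3. Without pLKO 0 h replicate 2 it was 11 and 11. Spc25 (0.29 ± 0.0509, adjusted p = 1.17e-05) and Ndc80 (0.26 ± 0.0384, adjusted p = 9.36e-07) followed Kif11 in size.

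**Figure D5:**
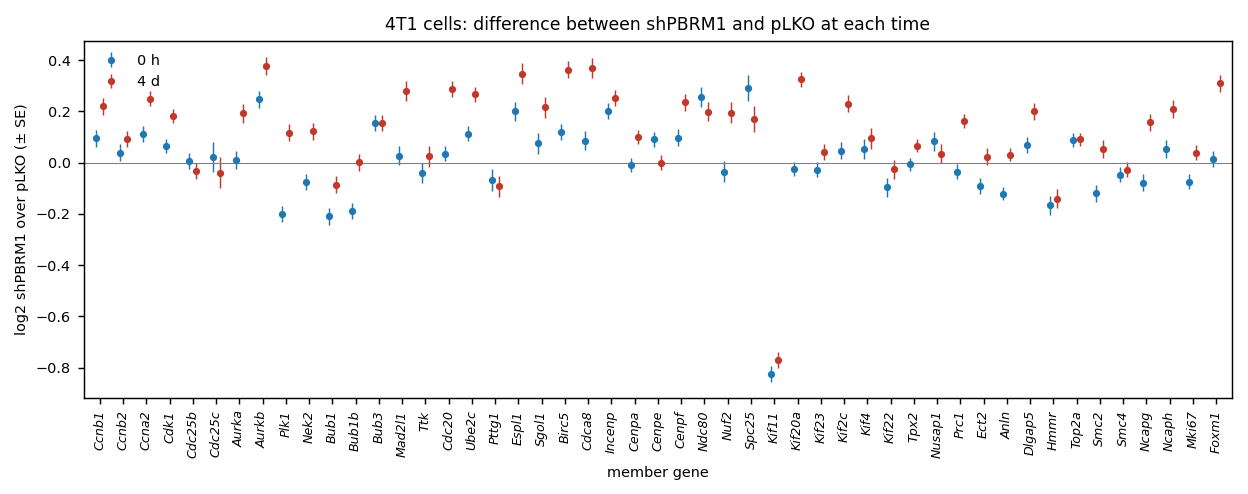
Each point is the log2 difference of shPBRM1 over pLKO in 4T1 cells for 1 of the 49 genes, with bars of 1 SE, at 0 h and at 4 d. Kif11 stood at −0.82 and −0.77, and the other 48 genes lay between −0.21 and 0.29 at 0 h and between −0.14 and 0.38 at 4 d.

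With TGFβ1 for 4 d, 32 genes were higher and 3 lower in shPBRM1 than in pLKO cells (median 0.16; 27.8% of all genes higher and 27.3% lower). Aurkb (0.38 ± 0.0347, adjusted p = 2.7e-11) and Cdca8, the borealin gene of the passenger complex (0.37 ± 0.0383, adjusted p = 4.09e-10), had the largest excess, and Kif11, Hmmr (−0.14 ± 0.0372, adjusted p = 0.00164) and Bub1 (−0.09 ± 0.0333, adjusted p = 0.0296) were the lower ones. The call of Bub1 was lost under 5 of 6 other settings of the test and without pLKO 4 d replicates 1 or 3 or shPBRM1 4 d replicate 2. Aurkb read 115, 117 and 109.7 and then 93.1, 91.4 and 95.9 CPM in pLKO cells, and 136, 136 and 133 and then 127, 119 and 118 CPM in shPBRM1 cells. The groups did not overlap at 4 d. The log2 change with TGFβ1 was higher, a smaller fall or a rise, in shPBRM1 cells for 28 genes (median difference 0.12; 13.2% of all genes), led by Kif20a (0.35 ± 0.0391, adjusted p = 1.4e-08), Plk1 (0.32 ± 0.047, adjusted p = 2.63e-06) and Foxm1 (0.29 ± 0.0452, adjusted p = 4.65e-06). Among the 28 were Cenpa, Kif2c and Ncaph, which rose with TGFβ1 in shPBRM1 cells. The count of genes past the threshold was 18 without pLKO 4 d replicate 2, 17 of them in this direction, and 23 without pLKO 0 h replicate 2.

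Plk1, the kinase with the second of these differences, read 190.4, 189 and 181 CPM and, with TGFβ1, 127, 125 and 137 CPM in pLKO cells. In shPBRM1 cells it read 162, 164 and 163 and 144, 140.2 and 137 CPM. Its change with TGFβ1 was −0.53 ± 0.0333 (adjusted p = 3.86e-16) in pLKO and −0.21 (adjusted p = 8.52e-07) in shPBRM1 cells. Of 40 replication genes, 37 were lower with TGFβ1 in pLKO cells (median −0.60; 35.4% of all genes) and 36 in shPBRM1 cells (median −0.44; 34.7% of all genes). Rrm2, a subunit of ribonucleotide reductase, led in pLKO cells at −1.47. In pLKO cells 26 of 35 spindle genes were lower and 3 higher (median −0.19), and 22 of 32 kinetochore genes were lower and 4 higher (median −0.29). Between genotypes at 4 d, 23 of the spindle, 19 of the kinetochore and 17 of the replication genes were higher in shPBRM1 cells (27.8% of all genes), and 1, 2 and 6 were lower (27.3% of all genes).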

How the data were processed

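RNA was sequenced in 60 libraries of NMuMG and 4T1 cells, in 20 groups of 3. The deposited values are raw read counts by gene, per the file headers. Tools named in the submitters' processing notes are edgeR, DESeq2, HISAT2, STAR 2.7.10a and Trim Galore 0.6.7, with the mm10 genome; the sources used here do not say which aligner was used for which table, nor whether counting used the strand, so reads of overlapping antisense genes cannot be told apart. Libraries of NMuMG were made by a sequencing company and those of 4T1 with a stranded mRNA kit, per the labels' protocols.

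Each table was fitted alone with edgeR 4.0.16 (R 4.3.3, limma 3.58.1): filterByExpr with a minimum count of 10 and total of 15, TMM scaling, 1 coefficient per group, all groups of an experiment in 1 fit, and its two-sided quasi-likelihood test. This kept 14345, 14983 and 13854 genes. Benjamini-Hochberg adjustment ran over all genes tested, at 0.05. The smallest p that an exact test of 3 against 3 can give is 0.1. CPM are counts scaled by TMM, CPM per kb divide them by the gene length in the tables, and SE is that of the log2 change. Promoter sequences came from RefSeq (GRCm38.p6).

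Genes given by library were 16 fixed genes. Others named were, per comparison, the 3 with the largest change past the threshold, those past it against the majority, and those not past it when 5 or fewer. The set and all gene lists were chosen with earlier results of these data known. Comparisons of 48 h with 0 h were added for the timing. Replicates were compared by chi-square, and no pair of libraries was a duplicate (the libraries that stood apart are named above). Same-numbered replicates did not deviate together (no comparison had every correlation above 0.1), so the replicate number was not used as a block. Alternatives were RLE size factors, library totals alone, no filter, DESeq2 1.42.0, the replicate block, only the groups compared, and leaving out each library. The test was checked on simulated data.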

Additional observations from a re-analysis of the deposited data

Results flagged for a closer look

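The changes below differed between genotypes by a test of the difference itself (edgeR's quasi-likelihood test, adjusted over all genes). Values of single genes are differences of log2 changes, those of the altered cells minus those of control. Comparisons that use the same libraries are not independent of each other, and no cause was tested. Shares in parentheses after a count are those of all genes that differed in the same direction.

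In sgPBRM1 against sgCT cells, 47 of 49 genes had the higher log2 change, a smaller fall or a rise, in the first 24 h (8.50%), the most Anln (0.54), Top2a (0.51) and Ube2c (0.50). From 24 to 48 h, 49 fell more (8.38%), led by Cdc25c (−1.52), Cenpe (−1.34) and Ube2c (−1.30). From 48 to 72 h, 39 fell more (7.18%), led by Ndc80 (−0.80), Ncapg (−0.75) and Kif4 (−0.69). Over 72 h, 48 fell more (15.8%), led by Ccnb2 (−1.76), Kif2c (−1.71) and Cdc25c (−1.70). Over 48 h, 48 fell more (13.5%), led by Ccnb2 (−1.12), Cdc25c (−1.10) and Kif2c (−1.08).

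In the libraries labelled shATF3 against pLKO, 20 genes differed in the first 24 h, 19 of them with the larger fall (10.9%), led by Cenpf (−0.67), Cdc20 (−0.65) and Ccnb2 (−0.64), with Bub3 the other way (0.25; 7.74% of all genes). From 24 to 48 h, 21 rose more (4.34%), led by Ccnb2 (0.85), Pttg1 (0.82) and Kif20a (0.67). Over 72 h, 2 differed, Prc1 (−0.39) and Ube2c (−0.36), a share below the 7.19% of all genes, with 1 to 9 when single libraries were left out. Over 48 h, 2 differed, Nek2 (0.43) and Tpx2 (0.24), near the 4.23% of all genes, with 0 to 2 when single libraries were left out. In 4T1 cells, 28 genes had the higher log2 change, a smaller fall or a rise, with shPBRM1 (13.2%), led by Kif20a (0.35), Plk1 (0.32) and Foxm1 (0.29).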

How the results depend on the processing

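Of 582 counts of genes past the threshold recomputed under the alternatives, 555 stayed within 1.5 times without the majority turning to the other direction. Of 10764 values of named genes, 10496 kept call and direction, 205 lost the call, 63 gained it and 0 changed direction as a call. The exceptions among counts are given here, and their cause was not tested. For the libraries labelled shATF3 against pLKO, the difference in the 72 h against 48 h change (0 genes) was 2 without the filter and 2 by DESeq2, and 0 to 1 with libraries left out. Its 72 h against 0 h change (2) was 5 without the filter and 1 to 9 with libraries left out. Its 48 h against 0 h change (2) was 1 without the filter and 0 to 2 with libraries left out. In 4T1, shPBRM1 against pLKO at 0 h (26 genes, 11 lower and 15 higher) gave 23 without the filter, with 12 lower and 11 higher, and 19 to 24 with libraries left out, where the majority turned to lower without any of the 3 shPBRM1 0 h libraries (21, 19 and 24 genes). The difference in the 4 d change (28) was 18 to 31 with libraries left out, lowest without pLKO 4 d replicate 2.

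With the replicate number as a block, no count moved by 1.5 times: the largest moves were 18 against 20 and 19 against 21 for the first and second step of the libraries labelled shATF3 against pLKO, and 28 against 26 for 4T1 at 0 h. Scaling by library totals alone shifted the median of all genes by over 0.1 in 9 of 43 comparisons, as from 0.001 to −0.188 for sgPBRM1 at 72 h against 0 h. It moved the share of higher calls among all genes by over 10 points in 22, as from 50.4% to 40.2% for sgCT and 50.9% to 36% for sgPBRM1 at 72 h, 50.4% to 37.3% for pLKO at 24 h, 47.2% to 29.9% for the difference of sgPBRM1 and sgCT from 24 to 48 h, and 50.2% to 36.9% for sgPBRM1 at 24 h. There the median of all genes moved from −0.004 to −0.104, and 45 genes of the set, against 40, were past the threshold. The share of all genes past it under that scaling is not given here, so the larger count is not read as a result about the set. At 24 h 34 genes of the set differed between sgPBRM1 and sgCT as before. Depth limits the low genes most, and the spread limits experiment 2.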

Other observations

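Regulators of the set and further cohesin and condensin genes moved unevenly in sgPBRM1 cells over 72 h of TGFβ1. Over that time 34.9% of all genes were lower and 36.2% higher there. Of 23 MuvB, DREAM and related transcription genes, 15 were lower and 3 higher (median −0.31), led by the E2F genes E2f2 (−4.86) and E2f8 (−3.15) and by Mybl2, which encodes B-MYB (−3.09). Of 18 CDK1 control genes tested, 11 were lower and 5 higher (median −0.43). Pkmyt1, a kinase that inhibits CDK1 (−3.41), and Ccnf, a cyclin of a ubiquitin ligase (−2.77), fell, while Gadd45a, a stress protein that can inhibit CDK1, rose (2.74). Of 17 APC/C genes 10 were lower and 4 higher (median −0.23), with Fbxo5, an APC/C inhibitor, at −2.68. Of 17 further cohesin and condensin genes 12 were lower and 2 higher (median −0.50), with Esco2, a cohesin acetyltransferase, at −3.84. In sgCT cells the same 4 lists had 16, 11, 9 and 13 genes lower at 72 h, beside all 49 of the mitotic set (34.4% of all genes). Their counts of higher genes in sgCT cells are not given here. Values are log2 changes from edgeR's test, and the lists were chosen with earlier results of these data known.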
